A study of Mus musculus with 11 samples.

Results

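The homeobox and paired-box transcription factors outside the Hox clusters were followed in mouse high-grade gliomas with and without knockdown of Ezh2. The set was defined by gene names and holds 49 developmental factors of 11 families (Six-type, Pax, Dlx, Lhx and Isl, Nkx, Msx, Meis and Pbx, Irx, Gsx, paired-like and Barhl). Of these, 45 had a row under their symbol among the 27687 genes of the count table, and Lhx8, Irx4, Gsx2 and Alx1 are not analysed here. RNA was measured by sequencing in 11 tumours, 9 labelled as having prolonged Ezh2 knockdown and 2 labelled as controls. All tumours grew in the brains of NOD-SCID mice, a host strain that lacks B and T lymphocytes, from neural stem cells of the subventricular zone of donors aged 7 days. The stem cells carried the compound conditional alleles p53, Ink4a/Arf, Krasv12 and LucR, which lentiviral Cre under the CMV promoter recombined in culture. Cells of both groups also carried FH1-tUTG-shEzh2, a hairpin against Ezh2 that doxycycline turns on, and were sorted for GFP before injection. The design text says that mice drank doxycycline or did not, whereas the treatment label of all 11 tumours lists drinking water with 2 mg/ml of it and 1% sucrose. The labels thus do not settle which water the control hosts had, and an effect of doxycycline cannot be told apart from one of the hairpin.

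Ezh2 is the catalytic subunit of Polycomb repressive complex PRC2, which places methyl groups on lysine 27 of histone H3. Homeobox genes, which encode DNA-binding factors that give embryonic cells their regional and lineage identity, are known for promoters rich in CG dinucleotides and are among the best-known targets of PRC2 in stem cells. In the brain, Dlx factors direct the GABA neurons of the ventral forebrain, Lhx and Isl factors specify neuron classes, and Meis and Pbx proteins bind DNA as partners of other homeodomain factors. Six-family, Prrx and Alx factors act mainly in muscle, limb and craniofacial mesenchyme.

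The promoters of 5 of the factors that were higher with knockdown are shown because they span the range of CG content among them. Each window runs from 250 bases before to 50 bases after a transcription start in RefSeq on GRCm38.p6, 5′ to 3′ on the strand of the gene, with CG dinucleotides in capitals. They lie at chr2:71529195-71529494 on the plus strand for Dlx1, and on the minus strand at chr2:71546705-71547004 for Dlx2, chr13:116309639-116309938 for Isl1, chr1:138842395-138842694 for Lhx9 and chr1:163313601-163313900 for Prrx1.
Dlx1: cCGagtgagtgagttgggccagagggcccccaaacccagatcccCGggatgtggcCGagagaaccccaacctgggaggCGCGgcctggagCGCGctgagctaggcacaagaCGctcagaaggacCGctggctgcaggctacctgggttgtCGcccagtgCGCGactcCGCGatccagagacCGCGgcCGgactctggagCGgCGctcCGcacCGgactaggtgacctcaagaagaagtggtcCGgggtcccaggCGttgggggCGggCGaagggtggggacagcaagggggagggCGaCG
Dlx2: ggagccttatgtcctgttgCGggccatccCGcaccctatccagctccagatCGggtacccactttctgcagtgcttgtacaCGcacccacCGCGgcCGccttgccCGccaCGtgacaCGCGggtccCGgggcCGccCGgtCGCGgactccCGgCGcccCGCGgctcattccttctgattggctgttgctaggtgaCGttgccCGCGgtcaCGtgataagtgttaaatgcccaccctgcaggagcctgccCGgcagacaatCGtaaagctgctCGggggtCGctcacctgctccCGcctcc
Isl1: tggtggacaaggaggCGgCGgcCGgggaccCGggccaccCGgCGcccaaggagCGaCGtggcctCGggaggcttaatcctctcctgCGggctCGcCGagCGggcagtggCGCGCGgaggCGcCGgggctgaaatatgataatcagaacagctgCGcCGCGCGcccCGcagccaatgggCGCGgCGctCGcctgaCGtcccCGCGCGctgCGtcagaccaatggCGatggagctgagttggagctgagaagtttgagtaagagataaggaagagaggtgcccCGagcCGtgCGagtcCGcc
Lhx9: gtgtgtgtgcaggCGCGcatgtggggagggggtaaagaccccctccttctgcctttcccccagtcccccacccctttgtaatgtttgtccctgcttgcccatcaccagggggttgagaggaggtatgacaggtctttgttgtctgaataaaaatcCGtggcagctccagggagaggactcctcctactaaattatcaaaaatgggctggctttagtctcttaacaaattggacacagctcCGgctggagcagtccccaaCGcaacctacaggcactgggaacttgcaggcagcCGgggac
Prrx1: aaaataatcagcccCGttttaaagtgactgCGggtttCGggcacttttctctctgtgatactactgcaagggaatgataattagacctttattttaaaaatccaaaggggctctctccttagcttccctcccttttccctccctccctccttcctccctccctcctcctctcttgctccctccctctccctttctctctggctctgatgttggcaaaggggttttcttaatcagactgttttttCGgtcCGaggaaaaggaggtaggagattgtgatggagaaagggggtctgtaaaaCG
The windows of Isl1, Dlx2 and Dlx1 held 37, 29 and 27 CG dinucleotides, and 10.2%, 23.5% and 28.3% of the windows of all genes tested held as many. The windows of Lhx9 and Prrx1 held 6 each, as many as or fewer than 84.2% of those windows. The other members that were higher, Pbx2, Meis3 and Six5, held 29, 21 and 17. A median of 24 CG dinucleotides was found over the 8 windows of the members that were higher. It was 16 over 14 windows of members tested and not called, and 19 over the 13841 windows of genes tested. Those 14 windows cover only 11 of the 18 uncalled members, with more than 1 window each for Lhx6 and Six4. Dlx3, Dlx5, Dlx6, Pbx3, Irx1, Irx5 and Alx4 had no window. The homeodomain core motif TAATTA, which reads alike on both strands, was present in 1 of the 8 windows, that of Prrx1, and in 2.83% of the windows of genes tested. These counts describe letters in a window, and the range of CG content was the ground for choosing the 5 after the counts were known.

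Libraries held between 11209233 and 18638382 counts, so that 3 counts correspond to between 0.162 and 0.273 CPM, each count relative to its library total after TMM scaling. Ezh2 averaged 16.2 ± 8.69 CPM in knockdown tumours and 48.998 ± 5.21 CPM in controls (SD, n = 9 and 2), 33.1% of the control level, and the knockdown tumours were lower (log2 fold change -1.59 ± 0.44 SE, edgeR adjusted p = 0.023). Knockdown tumours 3 and 9 had the most Ezh2 left, at 30.4 and 30.1 CPM. Only 4 libraries, knockdown tumours 1, 7, 8 and 9, held almost no Xist, between 0.108 and 1.097 CPM, against between 41.4 and 106 CPM in the other 5 knockdown tumours and 74.2 and 131 CPM in the controls. Both controls fall on one side of that split, so that only the 5 Xist-positive knockdown tumours could be compared within it. The labels do not say whether the tumours came from separate preparations of cells, so that a p-value speaks only to the variation among these libraries, part of which may be technical. In bulk tumours, fewer cells of a type and less RNA per cell cannot be told apart.

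Of the homeobox factors, 8 were higher in the Ezh2 knockdown tumours and none was called lower: Dlx1, Dlx2, Lhx9, Isl1, Meis3, Pbx2, Prrx1 and Six5. The fitted differences were smallest for Pbx2, at 1.47-fold, and largest for Lhx9 and Isl1, at 8.61-fold and 16.3-fold. The test could be run on 26 of the 45 factors, because the other 19 had too few counts, and 8 of 26 is 30.8%, against 10.3% of the 16241 genes tested that were higher. In either direction 23.3% of genes tested passed, and 13.0% were lower. By edgeR 0 of 26 members were lower, as by DESeq2 and limma-voom, and 1 was lower at an unadjusted p under 0.05. The median log2 fold change over the 26 was 0.73, against 0.07 over all genes tested, and it was positive for 22 members and negative for 4. All 9 knockdown tumours lay above both controls for the same 8 members, against 13.3% of genes tested, and below both for 1, Six4, against 13.8% of genes tested. With only 2 controls these calls rest on each of them. With either control left out, most of the 8 lost their call. The share of all genes called higher fell as well, and that of the members was then close to it. All 8 fold changes stayed positive, but with no overlap between groups their sign could hardly change. With the 5 Xist-positive knockdown tumours alone against the controls, 5 of the 8 were called, of 24 members tested, beside 13.5% of all genes called higher. The other 3 of the 8 had log2 fold changes of 1.66 for Dlx1, 1.82 for Dlx2 and 0.51 for Meis3. Their edgeR adjusted p-values were 0.055, 0.055 and 0.10.

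**Figure D1:**
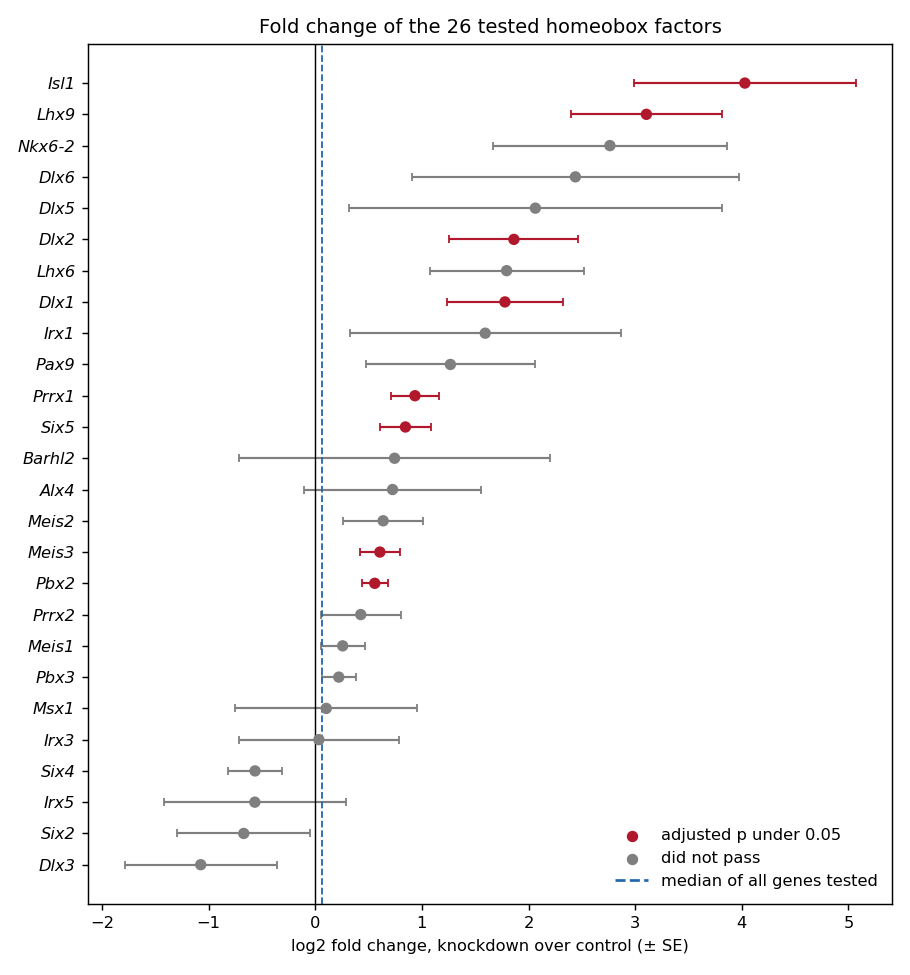
Log2 fold change of knockdown over control tumours (x axis, edgeR) for the 26 homeobox factors tested, with bars of 1 SE, coloured by the call at an adjusted p of 0.05. The 8 called members lie between 0.56 and 4.03, and the 4 negative values are those of Six2, Six4, Dlx3 and Irx5, none of which passed.

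Dlx1 and Dlx2, neighbouring homeobox genes that act together in GABA neuron precursors, had the highest levels per exon length of all members in knockdown tumours and were both over 3-fold higher than in controls. In mm9 Dlx1 (ENSMUSG00000041911) and Dlx2 (ENSMUSG00000023391) lie at chr2:71366170-71372038 and chr2:71381466-71384811, 9.43 kb apart. Dlx1 had a lowest level of 104, a median of 297 and a highest of 502 CPM in knockdown tumours, against 78.3 and 81.1 CPM in the controls. Dlx2 had 75.1, 188 and 377 CPM as its lowest, median and highest level in knockdown tumours, against 74.0 and 36.1 CPM in the controls. For both genes knockdown tumour 3 was highest and tumours 6 and 8 were lowest, and the groups did not overlap, although for Dlx2 tumour 8 and control 1 were nearly level. The means were 274 ± 130 in knockdown and 79.7 ± 1.98 CPM in control tumours for Dlx1 (SD, n = 9 and 2), a log2 fold change of 1.78 ± 0.54 SE with an edgeR adjusted p of 0.034. For Dlx2 they were 200.1 ± 100.3 CPM in knockdown and 55.05 ± 26.8 CPM in control tumours, a log2 fold change of 1.86 ± 0.61 with an edgeR adjusted p of 0.044. Dlx1as, an antisense gene that overlaps Dlx1, averaged 7.69 ± 4.99 CPM in knockdown and 2.11 ± 1.92 CPM in control tumours and did not pass (edgeR adjusted p = 0.093). Whether the counting used strand is not given in the sources used here, so that reads of the pair cannot be assigned with certainty. Both calls also rest on single knockdown tumours: the edgeR adjusted p of Dlx1 was 0.051 without tumour 1 and 0.052 without tumour 2, and that of Dlx2 lay between 0.052 and 0.065 without any 1 of tumours 1, 2, 4, 5 and 7. Without control 1 the log2 fold change of Dlx2 was 2.47, and without control 2 it was 1.43, with edgeR adjusted p-values of 0.12 and 0.27.

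The other Dlx genes did not pass. Dlx5 and Dlx6, a second neighbouring pair that acts in ventral forebrain, jaw and limb, stood apart in knockdown tumour 7. Dlx5 lay at 45.9 CPM there, against at most 5.23 CPM in the other 8 knockdown tumours, and at 2.69 and 0.689 CPM in the controls. Dlx6 likewise was highest in tumour 7, at 9.34 CPM, with a median of 0.548 CPM over the knockdown tumours and 0.539 and 0.188 CPM in the controls. The antisense gene Dlx6as1, which overlaps Dlx6, reached 100.4 CPM in the same tumour. The log2 fold change was 2.06 ± 1.75 for Dlx5 and 2.44 ± 1.53 for Dlx6, with edgeR adjusted p-values of 0.42 and 0.27. Dlx3, which acts in skin and placenta, was at 0.0539 to 1.31 CPM in knockdown tumours and at 1.00 and 0.877 CPM in controls, and its difference did not pass (log2 fold change -1.07 ± 0.71, edgeR adjusted p = 0.30).

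**Figure D2:**
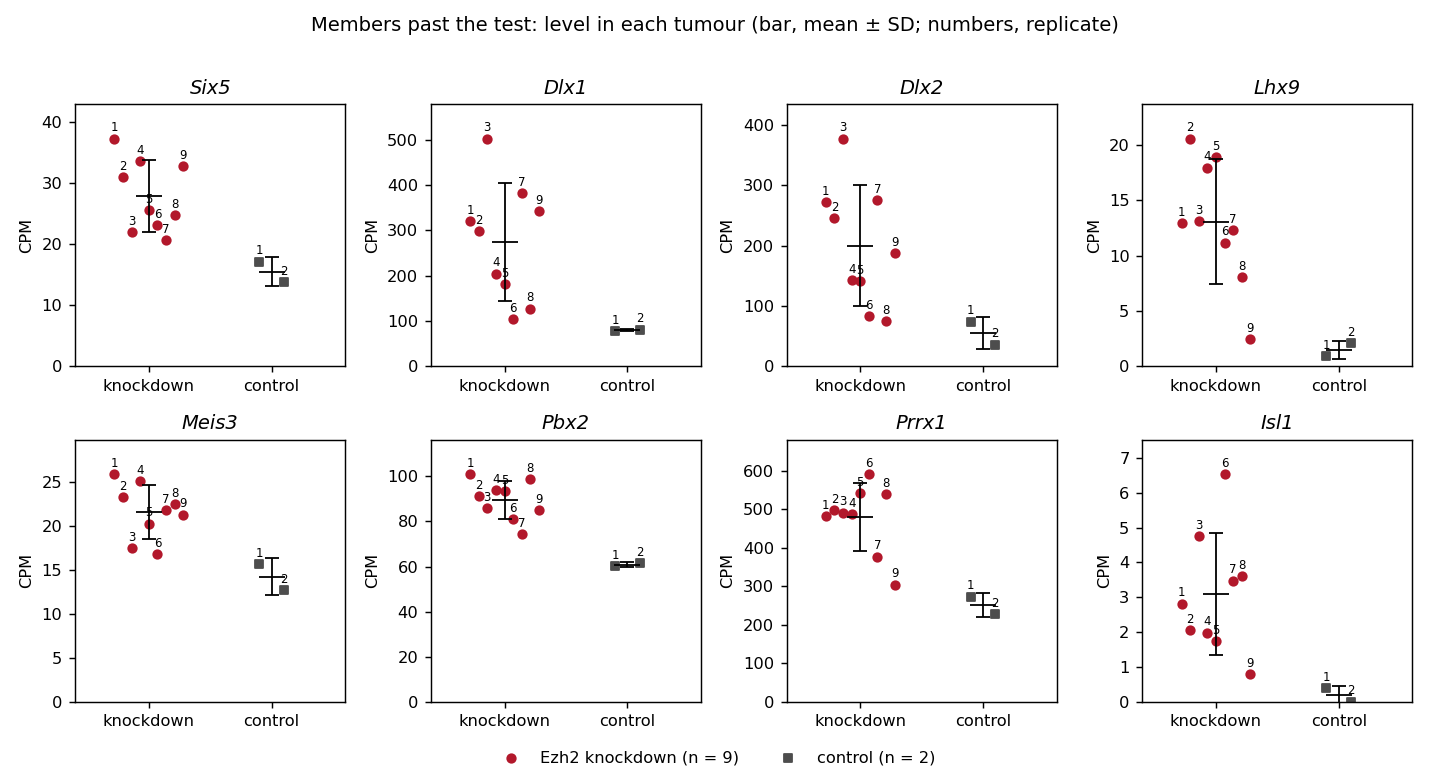
Level in each tumour (y axis, TMM-scaled CPM) of the 8 members that were higher with knockdown, knockdown tumours left of controls, with the group mean and SD. Every knockdown tumour lies above both controls in each panel, by the least for Dlx2, where knockdown tumour 8 is at 75.1 and control 1 at 74.0 CPM.

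The LIM-homeodomain factors Isl1 and Lhx9 had the largest fitted fold changes of the 26 members. Lhx9 (ENSMUSG00000019230, mm9 chr1:140721763-140745153), which acts in gonad, limb and thalamic development, had 2.46, 12.9 and 20.6 CPM as its lowest, median and highest level in knockdown tumours, against 0.923 and 2.07 CPM in the controls. The groups did not overlap, but knockdown tumour 9 was close to control 2 and well below the other 8 knockdown tumours, which had 8.08 CPM or more. Lhx9 averaged 13.1 ± 5.66 CPM in knockdown and 1.495 ± 0.809 CPM in control tumours, an 8.61-fold difference (log2 fold change 3.11 ± 0.71, edgeR adjusted p = 0.0098). Limma-voom gave an adjusted p of 0.069 for it, and the edgeR log2 fold change was 2.65 without control 1 and 3.81 without control 2, with adjusted p-values of 0.12 and 0.044. Isl1 (ENSMUSG00000042258, mm9 chr13:117088489-117099896), which specifies motor neurons and striatal and cardiac precursors, had 0.796, 2.82 and 6.54 CPM in knockdown tumours, against 0.385 and 0 CPM in the controls. Knockdown tumour 6 was highest and tumour 9 again lowest, and no tumour of either group overlapped the other. The log2 fold change of Isl1 was 4.03 ± 1.04 with an edgeR adjusted p of 0.017. That value rests on 5 counts over both controls, and the ratio of summed counts was 17.5 with an exact 95% interval of 7.43 to 54.1, which covers counting error only. Without control 2 its log2 fold change was 2.97 (edgeR adjusted p = 0.11), and without control 1, which leaves 0 control counts, the fitted value depends on the prior count. Lhx6, which acts in cortical interneurons after Nkx2-1, had 2.41, 6.45 and 17.3 CPM in knockdown tumours, against 3.00 and 1.75 CPM in controls, so that the groups overlapped. Its edgeR adjusted p was 0.092, and DESeq2 called it higher.

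Among the TALE factors, the homeodomain partners of Hox and other homeobox proteins, Pbx2 and Meis3 were modestly and evenly higher with knockdown. Pbx2 (ENSMUSG00000034673, mm9 chr17:34728211-34734345) had 74.4, 91.4 and 101 CPM as its lowest, median and highest level in knockdown tumours, against 60.1 and 61.5 CPM in the controls. Its highest knockdown tumour was only 1.36 times its lowest, and the groups were clearly separate. The difference was 1.47-fold (log2 fold change 0.56 ± 0.12), with the smallest edgeR adjusted p of the 26 members, 0.0083. Meis3 (ENSMUSG00000041420, mm9 chr7:16760439-16771859) had 16.8, 21.9 and 25.9 CPM in knockdown tumours, against 15.7 and 12.7 CPM in controls, a 1.52-fold difference (log2 fold change 0.61 ± 0.19, edgeR adjusted p = 0.037). Its groups did not overlap either, but knockdown tumours 6 and 3 came close to control 1, and the call was lost without any 1 of knockdown tumours 1, 2, 4, 5, 7 and 8, at edgeR adjusted p-values between 0.051 and 0.061. Meis1, Meis2 and Pbx3 did not pass, with log2 fold changes of 0.26 ± 0.21, 0.64 ± 0.38 and 0.22 ± 0.16 and edgeR adjusted p-values of 0.39, 0.24 and 0.34. All 3 overlapped the controls. Meis1 had 28.3 to 53.4 CPM in knockdown tumours, against 35.8 and 28.3 CPM in controls. Meis2 had 19.6 to 55.1 CPM in knockdown tumours, against 26.2 and 13.97 CPM in controls. Pbx3 had 90.1 to 136 CPM in knockdown tumours, against 92.2 and 104 CPM in controls.

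Prrx1 (ENSMUSG00000026586, mm9 chr1:165175247-165243841), a paired-like factor of limb and craniofacial mesenchyme, was the member with the most counts and was 1.91-fold higher with knockdown. It had 304, 491 and 592 CPM as its lowest, median and highest level in knockdown tumours, against 273 and 229 CPM in the controls. Tumours 9 and 7 were the lowest of the knockdown group and tumour 6 the highest, and even tumour 9 lay above both controls. The means were 479 ± 88.0 in knockdown and 251 ± 31.4 CPM in control tumours (SD, n = 9 and 2), with a log2 fold change of 0.94 ± 0.22 and an edgeR adjusted p of 0.012. Prrx2, its close relative, had 28.7 to 73.7 CPM in knockdown tumours, against 53.0 and 29.9 CPM in controls, and Alx4 had 2.69 to 30.8 CPM in knockdown tumours, against 6.23 and 11.6 CPM in controls. Both overlapped the controls and neither passed (edgeR adjusted p = 0.43 and 0.55). Markers of fibroblasts and meninges, cells in which Prrx1 is also known, did not move one way: of 12 tested, Pdgfrb and Islr were higher, and Col1a2 and Ogn were lower. Pdgfrb averaged 421 ± 160 CPM in knockdown and 90.3 ± 9.46 CPM in control tumours, and Col1a2 63.9 ± 50.5 CPM in knockdown and 1154 ± 21.4 CPM in control tumours. The 14 markers summed to between 837 and 5090 CPM in knockdown tumours, against 4349 and 4494 CPM in controls, with the lowest sum in tumour 9, the tumour lowest in Prrx1, and their part in the Prrx1 difference was not tested.

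In the sine oculis-related group, Six5 was 1.80-fold higher and Six4 and Six2 did not pass. Six5 (ENSMUSG00000040841, mm9 chr7:19679943-19683898), a muscle and lens factor whose human counterpart adjoins the myotonic dystrophy repeat, had 20.7, 25.6 and 37.3 CPM in knockdown tumours, against 17.2 and 13.8 CPM in controls. Knockdown tumours 1, 4 and 9 were the highest and tumour 7 the lowest, with no overlap between groups (log2 fold change 0.85 ± 0.24, edgeR adjusted p = 0.025). Six4, a factor of muscle and kidney development, ran the other way, with 15.3, 32.5 and 41.1 CPM in knockdown tumours, against 46.2 and 45.2 CPM in controls. The groups did not overlap, yet the difference did not pass (log2 fold change -0.56 ± 0.25, edgeR adjusted p = 0.12). It was called lower without knockdown tumour 7 (log2 fold change -0.50, edgeR adjusted p = 0.034), the tumour lowest for it, and without tumours 7 and 9 (edgeR adjusted p = 0.039). Six2, a factor of nephron precursors, lay between 0.977 and 14.6 CPM in knockdown tumours, against 14.8 and 10.96 CPM in controls, and overlapped them (edgeR adjusted p = 0.46).

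In the Pax, Nkx, Msx, Irx and Barhl families no member passed. Pax9, a factor of pharyngeal and skeletal mesenchyme, had 0.332 to 3.53 CPM in knockdown tumours, against 0.462 and 0.501 CPM in controls (edgeR adjusted p = 0.26). Nkx6-2, an oligodendrocyte and motor neuron factor, had 0.0909 to 1.099 CPM in knockdown tumours, against 0.154 and 0 CPM in controls. Only 2 counts stood behind those control values, and the ratio of summed counts was 8.10, with an exact 95% interval of 2.16 to 68.1 and an edgeR adjusted p of 0.089. Msx1, a BMP-responsive factor of neural crest and dorsal midline, spanned the controls widely, with 4.18 to 64.7 CPM in knockdown tumours, against 13.9 and 20.9 CPM in controls, and its highest value was in tumour 3 as for Dlx1 and Dlx2. Its log2 fold change was 0.10 ± 0.85 (edgeR adjusted p = 0.94). The Irx genes, patterning factors of heart and neural tube, overlapped the controls as well. Irx1 had 0 to 4.63 CPM in knockdown tumours, against 1.00 and 0.188 CPM in controls, with an edgeR adjusted p of 0.39. Irx3 had 1.33 to 20.3 CPM in knockdown tumours, against 7.08 and 8.83 CPM in controls, and Irx5 had 0 to 5.73 CPM in knockdown tumours, against 4.54 and 4.45 CPM in controls. Irx3 and Irx5 had edgeR adjusted p-values of 0.98 and 0.66. Barhl2, a spinal and retinal interneuron factor, differed widely between knockdown tumours. It lay at 140.4 and 65.5 CPM in knockdown tumours 9 and 7 but at 2.27 to 14.3 CPM in the other 7, all of them below the controls at 17.7 and 15.8 CPM. Its log2 fold change was 0.74 ± 1.46 over all 9 (edgeR adjusted p = 0.74) and turned to -1.38 without tumours 7 and 9 (edgeR adjusted p = 0.083). Tumours 1 and 8, also without Xist, were low like the rest, at 14.3 and 3.07 CPM. Without all 4 it was -1.57 (edgeR adjusted p = 0.043), an alternative chosen after the data were seen.

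**Figure D3:**
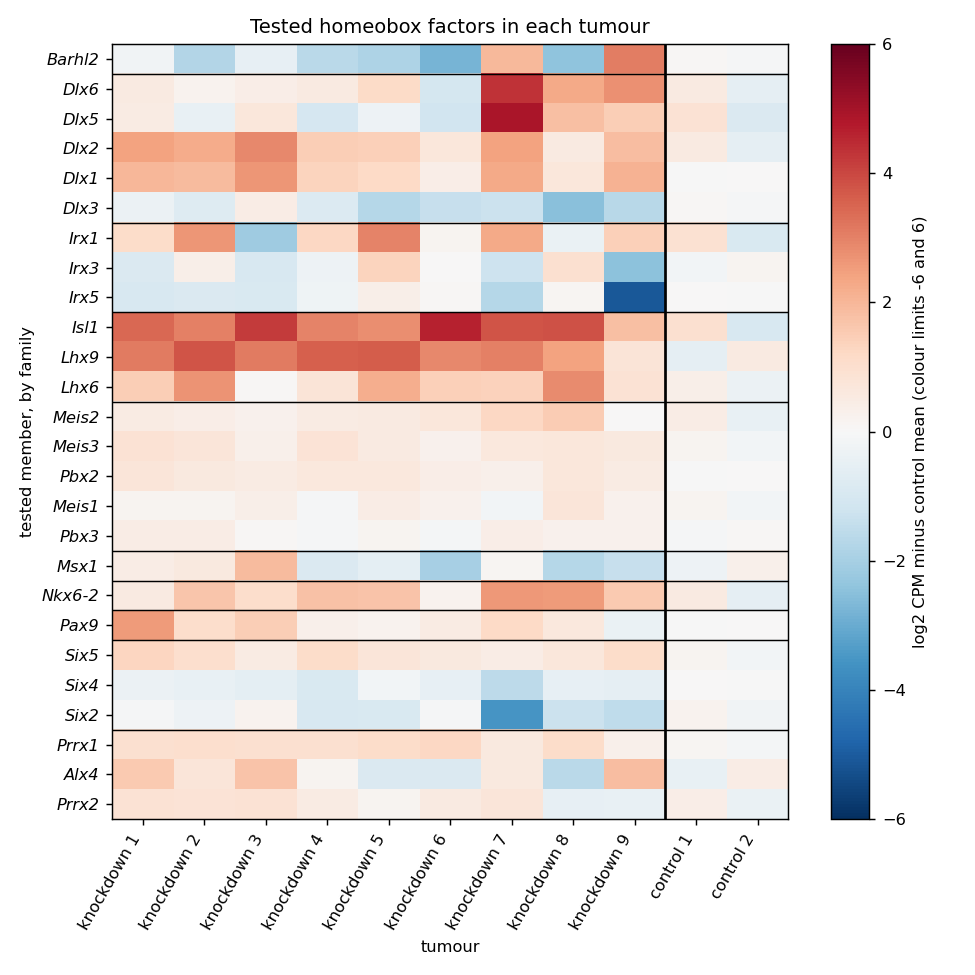
Heat map of the 26 homeobox factors tested (rows, by family) in each tumour (columns, knockdown left of control), as log2 CPM minus the control mean, with colours limited at 6 in either direction. The rows of the 8 called members are above the control mean in every knockdown column, whereas Dlx5 and Dlx6 stand out in knockdown tumour 7 and Barhl2 is above it in tumours 7 and 9 only.

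The spread among the 9 knockdown tumours differed widely between factors. The highest tumour was 1.36 times the lowest for Pbx2, 1.54 times for Meis3, 1.80 times for Six5 and 1.95 times for Prrx1, the called members with the smallest spread. It was 4.82 times the lowest for Dlx1, 5.03 for Dlx2, 8.22 for Isl1 and 8.38 for Lhx9, and 61.8 for Barhl2, 84.1 for Dlx5 and 102.8 for Dlx6. No single tumour set the high values: tumour 3 was highest for 6 of the 26 members and tumours 1 and 5 for 4 each. The low values were more concentrated, with tumour 6 lowest for 8 members, tumour 9 for 7 and tumour 7 for 5. The 2 tumours with most Ezh2 left shared a place for some members only. Tumour 3 was highest for Dlx1 and Dlx2, where tumour 9 ranked 3 and 5 of 9. Tumour 9 was lowest for Lhx9, Isl1 and Prrx1, where tumour 3 ranked 4, 2 and 5. Tumours 3 and 9 were, however, the 2 highest for Alx4 and the 2 lowest for Meis2.

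Per exon length, the scale on which genes can be compared, Dlx2 was at 70.1 ± 35.1 RPKM (CPM per kilobase of exon) in knockdown tumours and 19.3 ± 9.39 RPKM in controls. Dlx1 followed at 50.7 ± 24.1 RPKM in knockdown tumours and 14.8 ± 0.367 RPKM in controls. Prrx1 was at 43.3 ± 7.95 RPKM with knockdown and 22.7 ± 2.84 RPKM in controls, and Prrx2 at 28.4 ± 9.10 RPKM with knockdown and 21.1 ± 8.34 RPKM in controls. The knockdown means of Dlx2, Dlx1 and Prrx1 lay within 1 SD of Dlx2 of each other, and in the controls Prrx1 had the highest mean. Lhx9 and Isl1, with the largest fold changes, stayed low on this scale even with knockdown, at means of 1.38 and 0.780 RPKM, against 0.157 and 0.0485 RPKM in controls.

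**Figure D4:**
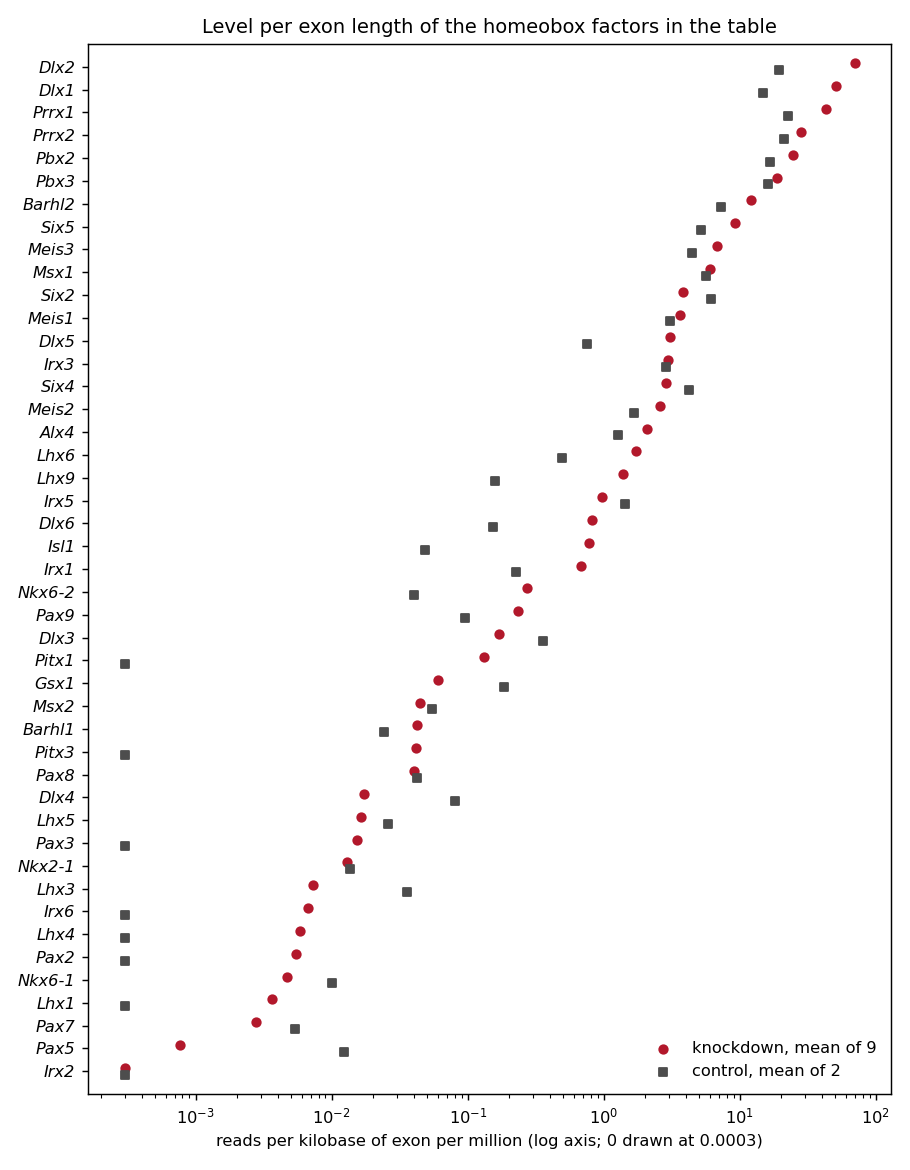
Mean level per exon length (x axis, RPKM on a log scale) of the 45 homeobox factors in the table, knockdown and control tumours in separate colours, with means of 0 drawn at the far left. Dlx2, Dlx1, Prrx1 and Prrx2 lead in knockdown tumours, and 19 factors without enough counts for a test lie at the low end.

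Those 19 factors were near silent in both groups: Pax2, Pax3, Pax5, Pax7, Pax8, Dlx4, Lhx1, Lhx3, Lhx4, Lhx5, Nkx2-1, Nkx6-1, Msx2, Irx2, Irx6, Gsx1, Pitx1, Pitx3 and Barhl1. None reached more than 40 counts over all 11 libraries, 19 counts in one library or 1.73 CPM, and 8 of them had 0 counts in both controls. Irx2 had no count in any tumour. They include regional regulators such as Nkx2-1 of the ventral telencephalon and Pax3 and Pax7 of the dorsal neural tube and muscle. Differences in these 19 were not tested in the main edgeR fit, since the filter on counts removed them. The floor of 3 counts, or 0.162 to 0.273 CPM, was a chosen value and not one estimated from the data.

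Related genes moved in both directions. Among 7 tested homeobox genes of the same families outside the set, Msx3, a dorsal spinal cord factor, was 11.9-fold lower, at 1.01 ± 0.835 CPM in knockdown and 11.97 ± 5.40 CPM in control tumours (edgeR adjusted p = 0.0062). Of 32 tested homeobox genes of other families, 7 were higher and 2 lower, with a median log2 fold change of 0.28. The share called was 28.1%, against 23.3% of all genes tested. Meox1, a somite factor, averaged 521 ± 131 CPM in knockdown and 77.7 ± 5.89 CPM in control tumours, a 6.71-fold difference (edgeR adjusted p = 0.00026). Zfhx4, a zinc finger homeobox factor, averaged 26.6 ± 7.89 CPM in knockdown and 5.12 ± 0.821 CPM in control tumours, 5.19-fold higher (edgeR adjusted p = 0.00082). Tgif1, a TALE repressor in TGF-beta signalling, was 2.61-fold lower, at 72.4 ± 12.7 CPM in knockdown and 189 ± 72.6 CPM in control tumours (edgeR adjusted p = 0.00087), and Zfhx2 was 2.23-fold lower (edgeR adjusted p = 0.028).

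Cofactors of LIM, Six-family and Groucho-binding factors were called at about the background rate, 20.8% of 24 tested, with 4 higher and 1 lower. Dach2, a corepressor of the Pax, Eya and Six-family network, had 2 counts over both controls, and its ratio of summed counts was 19.3, with an exact 95% interval of 5.26 to 160.6 (edgeR adjusted p = 0.018). Ssbp2, which binds the LIM cofactor Ldb1, was 1.597-fold higher (edgeR adjusted p = 0.021), and Eya4, a Six-family coactivator, was 3.13-fold lower (edgeR adjusted p = 0.041).

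Genes of GABA neurons, which Dlx, Gsx, Nkx2-1 and Lhx6 are known to control, were not called higher beside Dlx1 and Dlx2. Of 18 tested, 0 were higher by edgeR or limma-voom and 2 were by DESeq2. At an unadjusted edgeR p under 0.05, 3 were higher and 3 lower. The median log2 fold change of the list was 0.38, against 0.07 over all genes tested. That list includes the antisense genes Dlx1as and Dlx6as1, at log2 fold changes of 1.88 and 1.73. They overlap Dlx1 and Dlx6 and may share their reads, and a median without them was not computed. Gad1, which makes GABA, averaged 13.5 ± 10.8 CPM in knockdown and 18.5 ± 6.10 CPM in control tumours (edgeR adjusted p = 0.66), and Gad2 averaged 3.90 ± 3.45 CPM in knockdown and 6.60 ± 4.81 CPM in control tumours (edgeR adjusted p = 0.46). The GABA transporter gene Slc32a1 averaged 0.891 ± 1.102 CPM in knockdown and 0.178 ± 0.0746 CPM in control tumours (edgeR adjusted p = 0.20). Pvalb, a calcium-binding protein of interneurons, had 2 control counts, and its ratio of summed counts was 12.98, with an exact 95% interval of 3.51 to 108.4 (edgeR adjusted p = 0.075). The 2 that were lower are the chemokine receptors of migrating interneurons, Cxcr4 at 27.1 ± 7.16 CPM in knockdown and 93.8 ± 61.4 CPM in control tumours, and Cxcr7 at 26.5 ± 11.6 CPM in knockdown and 87.3 ± 35.4 CPM in control tumours (edgeR adjusted p = 0.0027 and 0.0086). Immune and endothelial cells also express both receptors. Tumour 7, highest for Dlx5 and Dlx6, also had the highest level of the peptide gene Npy, at 94.7 CPM, and of Gad1, at 38.6 CPM. Other genes of the list peaked elsewhere, Gad2, Slc32a1 and Sst in tumour 9 and Pvalb in tumour 8.

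Of 20 BMP ligands and response genes tested, upstream of Msx and Dlx factors in development, 1 was higher and 4 were lower, with a median log2 fold change of 0.02. The share called was 25%, near the 23.3% of all genes tested. Smad5, a BMP signal transducer, was 1.54-fold higher (edgeR adjusted p = 0.049). The ligand Bmp6 was 3.42-fold lower, at 1.85 ± 0.720 CPM in knockdown and 6.33 ± 0.184 CPM in control tumours (edgeR adjusted p = 0.0058). The BMP target Id2 was 2.06-fold lower (edgeR adjusted p = 0.012), and the other 2 were Smad7 and Grem1. Over the 5 lists of related genes 23 genes were called, of which 9 remained called without control 1 and 12 without control 2. Meox1, Zfhx4 and Tgif1 were called in both cases, whereas Eya4 gave an adjusted p of 0.87 without control 2, Cxcr4 0.16 without control 1, and Grem1 changed sign without control 1.

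Markers of the cell types that a brain tumour can hold also differed between groups. Unless another tool is named, the counts are edgeR calls, beside 23.3% of all genes tested called in either direction. Of 12 neural stem and glioma markers, 5 were lower (Nes, Olig2, Olig1, Vim and Sox2) and Pdgfra was higher, and they summed to between 2735 and 4038 CPM in knockdown tumours, against 7543 and 6492 CPM in controls. Of 12 neuron markers 3 were higher (Snap25, Camk2a and Rbfox3), yet the list summed to between 79.8 and 486 CPM in knockdown tumours, against 236 and 166 CPM in controls. Mural markers were 1 higher and 2 lower of 10, endothelial markers 3 and 1 of 10, and choroid plexus and ependymal markers 1 and 0 of 7, with sums overlapping the controls in each. Of 10 macrophage markers 7 were lower and none higher, with sums of 347 to 759 CPM in knockdown tumours, against 652 and 2102 CPM in controls. All 8 neutrophil markers were lower, their sum being between 2.45 and 9.43 CPM in knockdown tumours, against 209 and 62.8 CPM in controls. Skeletal muscle markers summed to between 4.76 and 36.1 CPM in knockdown tumours, against 5.85 and 3.38 CPM in controls, with 0 of 3 tested called by edgeR or limma-voom, 1 called higher by DESeq2, 1 higher at an unadjusted p under 0.05 and Myh2 at 0 in every tumour. Limma-voom called 1 neuron marker and no mural, endothelial or choroid plexus marker higher, and 4 macrophage markers lower. Its calls lower were 2 for mural and 1 for endothelial markers, as by edgeR. For neural stem and glioma markers it called 2 higher and 5 lower, and all 8 neutrophil markers were lower by it. The part of these cell types in the homeobox differences was not tested.

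**Figure D5:**
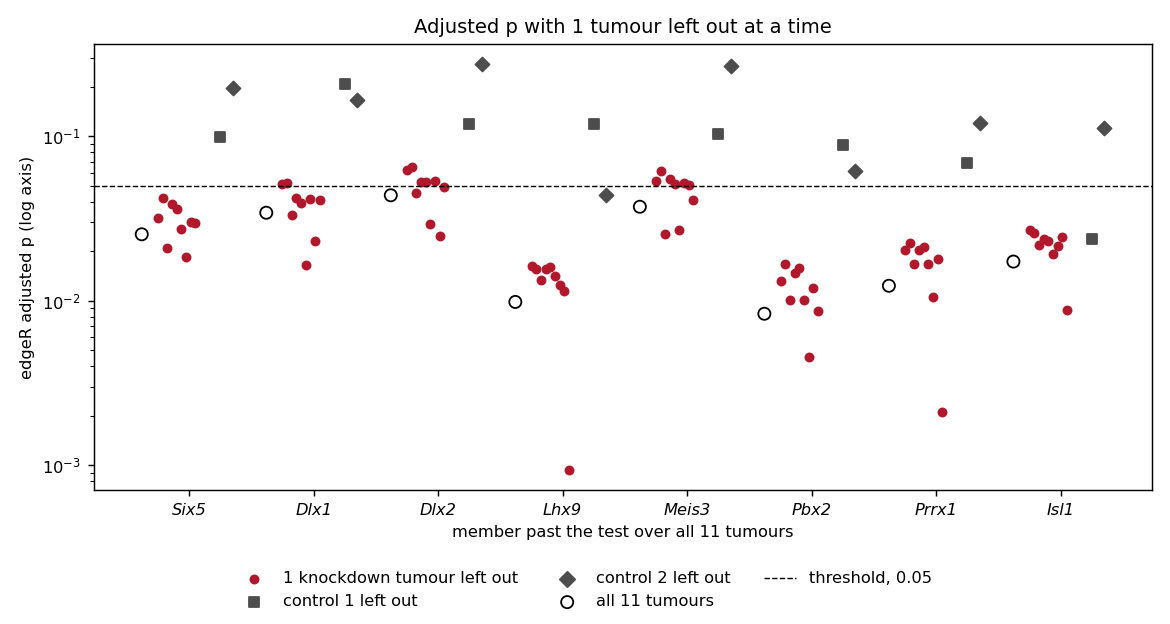
Adjusted p (y axis, log scale) of the 8 called members (x axis) over all 11 tumours (open circles) and with each tumour left out in turn, knockdown tumours left of controls, with the threshold of 0.05 as a line. Without either control 1 of the 8 stays under the line, Isl1 without control 1 and Lhx9 without control 2.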

How the data were processed

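RNA was sequenced from 11 tumours. The authors deposited 1 table of read counts per Ensembl gene, which per the submitters' processing notes was made with TopHat 1.4.0, HTSeq and the build mm9. Per the labels' protocols, RNA came from TRIzol extracts and TruSeq RNA libraries run on a HiSeq2000. Use of strand is not given in the sources used here, and another gene model overlaps 15 of the 45 members. Groups and replicate numbers follow the sample titles. Genes were filtered with filterByExpr, which kept 16241 of 27687 genes with 99.9% of the counts. Libraries were scaled by TMM (0.919 to 1.08). The groups were compared with edgeR 4.0.16 in R 4.3.3 (quasi-likelihood F-test, Benjamini-Hochberg adjustment over all genes tested, threshold 0.05). Standard errors of fold changes were derived from F. The biological coefficient of variation was 33.9%. Folds are the fitted ones, and CPM are means ± SD. RPKM use exon lengths of GENCODE M21 matched by identifier. Alternatives were RLE size factors, 2 other filters, DESeq2 1.42.0, limma-voom (limma 3.58.1), a test against a 1.5-fold change, a replicate block and omission of tumours. The members and gene lists were chosen with earlier results of these data known. Of 256 list symbols 247 were matched. The text names every called member, the uncalled member with the smallest p in families without a call, and up to 2 genes per direction from each list. A gene that this rule takes is not reported here. The other members were added so that all are accounted for. Further list genes were named outside this rule, among them Gad1, Gad2, Slc32a1, Pvalb, Npy and Sst. Smad7, Grem1, Olig1, Vim, Sox2 and Rbfox3 were also named outside it.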

Additional observations from a re-analysis of the deposited data

Results flagged for a closer look

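Within the 9 knockdown tumours, 1 tumour stood apart from the rest by Dixon's test (gap to the nearest tumour over the whole range above 0.493, both measured as log2 CPM, prior count 2) for 4 of the 26 tested members. Chance alone flags about 1 in 20 groups. Dlx5 was highest in knockdown tumour 7, at 45.9 CPM with the next tumour at 5.23 CPM, a gap of 0.51 of the log2 range. Six2 was lowest in the same tumour, at 0.977 CPM with the next at 4.38 CPM, a gap of 0.542 of the log2 range. Lhx9 was lowest in knockdown tumour 9, at 2.46 CPM with the next at 8.08 CPM, a gap of 0.555 of the log2 range. Irx5 had 0 CPM in knockdown tumour 9 with the next tumour at 1.28 CPM, a gap of 0.622 of the log2 range, where the place of a count of 0 is set by the prior count. On the CPM scale itself the gap was 0.897 for Dlx5, and 0.249, 0.311 and 0.224 for Six2, Lhx9 and Irx5, so that of the 4 only Dlx5 stood apart on both scales. Tumours 7 and 9 are both among the 4 libraries with almost no Xist reads, and the part of that difference in these values was not tested.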

How the results depend on the processing

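The 8 members called higher kept a positive fold change in every alternative, and the count was 8 with RLE size factors and the stricter filter, 7 without a filter (Meis3 lost) and with limma-voom (Lhx9 lost), 9 with DESeq2 and 6 without knockdown tumours 7 and 9. The count of higher members was 2 (Isl1 and Lhx9) in the test against a 1.5-fold change, beside 2.77% of all genes. It was 3 (Dlx1, Dlx2 and Lhx9) with the replicate block, beside 2.23% of all genes. In that block, replicate numbers 3 to 9 have no control, so that only tumours 1 and 2 of each group inform the difference. The count was 5 (Isl1, Lhx9, Pbx2, Prrx1 and Six5) without knockdown tumours 1, 7, 8 and 9, beside 13.5% of all genes. That alternative was chosen after seeing the data. With 1 knockdown tumour left out the count of higher members ranged from 5 to 8. It was 5 without knockdown tumour 1 or 2, beside 8.77% and 8.09% of all genes. The count was lowest without either control, where the share of all genes called higher fell as well. The count of lower members was 1 without knockdown tumours 7 and 9 (Six4) and 1 without tumours 1, 7, 8 and 9 (Barhl2), and ranged from 0 to 1 with 1 tumour left out. The members' median log2 fold change was 0.57 without tumours 7 and 9, 0.46 without tumours 1, 7, 8 and 9, and between 0.56 and 0.93 with 1 tumour left out. Over all genes, 1159 were called against a 1.5-fold change, 686 with the block, and between 1290 and 4269 with 1 tumour left out. Ezh2 stayed lower: its log2 fold change was -1.59 (adjusted p = 0.091) against a 1.5-fold change, -1.55 (adjusted p = 0.057) with the block, and between -1.76 and -1.48 with 1 tumour left out, not called without control 1 (adjusted p = 0.11) or control 2 (adjusted p = 0.14). Barhl2 was negative with DESeq2 (-0.34), limma-voom (-0.65), the block (-0.98), without tumours 7 and 9 (-1.38), without 1, 7, 8 and 9 (-1.57) and without tumour 9 (-0.26), with a range of -0.26 to 0.90 when 1 tumour was left out. Msx1 was negative with limma-voom (-0.43), without knockdown tumour 3 (-0.43) and without control 1 (-0.16), with a range of -0.43 to 0.42 when 1 tumour was left out. Except for omitted tumours and the block, where knockdown tumours 3 to 9 do not inform the difference, the cause was not tested.

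The shared replicate numbers, 1 and 2, do not pair tumours in the labels, and deviations from the group means correlated at -0.142 for number 1 and 0.0165 for number 2. With 2 controls the deviations of one are the negative of the other's. The crossed values were therefore 0.142 and -0.0165, and such correlations cannot settle whether tumours were paired. The 2 controls limit these calls, since without either one the spread of the lone control is assumed to equal that of the knockdown tumours. Without control 1, whose loss leaves control 2 at 0 counts of Isl1, the fitted change of Isl1 depends on the prior count. Genes that the filter removed were not compared in the main setting, and the floor of 3 counts was a chosen value. Comparisons that rest on a few counts stay uncertain.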
